A study of Mus musculus with 4 samples.

Results

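YAP1 and TAZ, the latter encoded by Wwtr1, are transcriptional co-activators of the Hippo pathway, a kinase cascade that responds to cell contact, cell shape and the stiffness of the surroundings. When the kinases LATS1 and LATS2 phosphorylate them they are kept in the cytoplasm or degraded, and when they are not phosphorylated they enter the nucleus and act through TEAD family DNA-binding proteins. In liver this pathway is known for its part in organ size, in regeneration and in the choice between hepatocyte and biliary fates. Because YAP1 and TAZ are regulated largely at the protein level, RNA of their target genes is commonly read beside RNA of the co-activators themselves. Described here are 10 genes taken by name from a gene table of 31828 genes. They are Yap1, Wwtr1, the DNA-binding partner Tead1, and Ankrd1, Cyr61, Ctgf, Amotl2, Ajuba, Axl and Lats2, which are known YAP/TAZ targets or, for Ajuba, Amotl2 and Lats2, also regulators of the pathway. All 10 were found in the table and passed the filter on low values.

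RNA was sequenced from AML12 cells, an immortalised mouse hepatocyte line, in 4 libraries, 2 from 2D-cultured and 2 from 3D-cultured cells. The 2D-cultured cells grew in dishes and the 3D-cultured cells were embedded in Matrigel, a basement membrane extract. Both received 1 mM hydroxyurea, an inhibitor of DNA replication, for 24 h from 50% confluence in 2D and for 36 h after 24 h of growth in 3D. Culture and drug time therefore changed together, and cell density, given for 2D alone, may have differed too. The parts of these in any difference cannot be told apart. The labels do not say whether the replicates are separate cultures, so p-values measure the spread between these libraries, which may be technical.

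The values are TPM (transcripts of a gene as a share of all transcripts, corrected for transcript length and scaled to the same total in every library), which keep no information on sequencing depth. Between 13891 and 14256 genes reached 1 TPM in a library, and the correlation of log2(TPM + 1) across the 14116 genes tested was 0.991 and 0.992 within a culture and 0.951 to 0.952 between cultures. The cell type was checked against marker genes. Of 10 hepatocyte markers 9 were in the table, with Hnf4a at 57.1 ± 0.663 TPM in 2D and 159.7 ± 5.78 in 3D and Krt18 at 6207 ± 112 and 3297 ± 31.2 (SD, n = 2 each), while Alb was low at 1.01 ± 0.271 and 11.4 ± 1.91 TPM and Serpina1a did not exceed 0.0768 TPM in any library. The biliary keratins Krt7 and Krt19 were also high, at 492 ± 0.0280 and 1687 ± 57.0 TPM in 2D, while the biliary marker Epcam did not exceed 0.0298 TPM in any library. All 5 endothelial markers stayed below 1 TPM in every library. So did 5 of the 6 stellate and fibroblast markers and 3 of the 6 leukocyte markers in the table, Ptprc and Adgre1 among them.

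To show what the promoters of these genes share, the TEAD hexamer GGAATG and its reverse complement CATTCC were searched on RefSeq promoter windows of 300 bases (GRCm38.p6, 250 bases before and 50 from the start site on). Windows were matched for 8 of the 10 members, all but Tead1 and Ctgf, and all 8 members held the hexamer. It was present in 14.7% of all 32851 promoter windows, and in 14.7% of the 10063 tested genes with a window. The upstream sequences of Ankrd1 (chr19:36119845-36120094, minus strand) and Cyr61 (chr3:145649986-145650235, minus strand) are printed because these were the members whose levels changed most. They run 5′ to 3′ on the strand of the gene, end at the base before the start site, and carry the hexamer in capitals.
Ankrd1: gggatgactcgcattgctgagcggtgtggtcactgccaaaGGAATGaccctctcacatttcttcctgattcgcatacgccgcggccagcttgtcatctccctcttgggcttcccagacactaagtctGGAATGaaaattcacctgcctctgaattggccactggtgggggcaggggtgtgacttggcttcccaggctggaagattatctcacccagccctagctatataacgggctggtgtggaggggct
Cyr61: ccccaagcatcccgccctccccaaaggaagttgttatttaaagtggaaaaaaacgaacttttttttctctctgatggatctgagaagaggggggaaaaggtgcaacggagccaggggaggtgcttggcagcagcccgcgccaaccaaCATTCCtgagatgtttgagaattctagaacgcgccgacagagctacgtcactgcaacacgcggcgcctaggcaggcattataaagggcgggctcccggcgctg

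The Ankrd1 window held the hexamer at 2 places, starting at positions -210 and -123 from the start site, and the Cyr61 window held it once, at -103, as its reverse complement. For the other 6 members the 30 bases around each match are given, again with the hexamer in capitals, so that matches in genes that rose, fell or did neither can be compared. They lie at chr9:8004720-8004749 (Yap1, position -141), chr3:57576029-57576058 (Wwtr1, -136 from the upstream of its 2 start sites), chr9:102717727-102717756 (Amotl2, plus strand, -65), chr14:54577830-54577859 and chr14:54577808-54577837 (Ajuba, -186 and -164), chr7:25788949-25788978 (Axl, -233) and chr14:57746102-57746131 (Lats2, 5 bases into the transcript), all but Amotl2 on the minus strand.
Yap1: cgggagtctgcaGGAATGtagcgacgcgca
Wwtr1: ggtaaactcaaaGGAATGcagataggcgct
Amotl2: ctgaaactctcaCATTCCtggcatagcagc
Ajuba, first match: cgttgatggataCATTCCacagtgcccctc
Ajuba, second match: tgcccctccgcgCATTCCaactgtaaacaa
Axl: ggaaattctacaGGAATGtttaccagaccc
Lats2: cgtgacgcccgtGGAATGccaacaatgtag

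Beyond the hexamer the printed flanks differ between genes. The RefSeq start sites used for Lats2 (57746123) and Amotl2 (102717804) lie inside the spans given below for these genes. Lats2 has another window, which held no match. The hexamer was present in members that fell in 3D (Ankrd1, Cyr61, Amotl2, Ajuba and Axl), in Yap1, which rose, and in Wwtr1 and Lats2, which did not pass the test. Across all tested genes it was found at like shares in those lower in 3D (15.7% of 2801 genes with a window), those higher in 3D (15.8% of 2507) and those not past the threshold (13.4% of 4759). Among genes that passed the test with a log2 change below -1 it was found in 20.7% of 343 with a window. Of the other lists described here, it was found in 2 of 10 other YAP/TAZ target genes with a window and 3 of 5 TEAD and VGLL genes. It was found in 4 of 17 Hippo kinases and regulators, 1 of 6 relatives of the targets and 5 of 9 genes of the SRF and MRTF list. The AP-1 heptamer TGACTCA or TGAGTCA and the CArG box, the sequence bound by serum response factor, were searched too. They were found in 0 of the 8 member genes with a window, against 5.95% and 1.81% of all 27025 genes with a window. At these shares 0 of 8 cannot tell the members from other genes. In the 343 genes with a log2 change below -1 they were found in 8.16% and 2.62%, against 4.99% and 1.62% of tested genes with a window. The higher share in that set was thus not particular to the TEAD hexamer, and genes with a log2 change above 1 were not counted. These are descriptions of letters in a window and do not show binding.

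**Figure D1:**
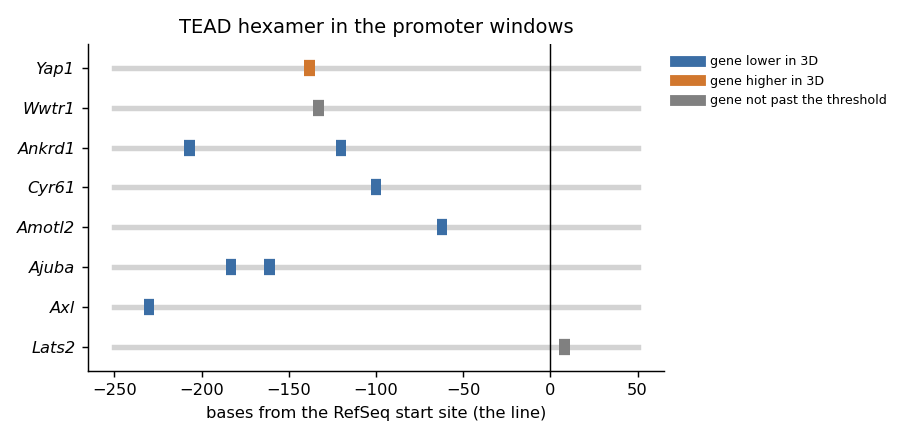
Places of the TEAD hexamer, on either strand, in the promoter windows of 8 members; the x axis gives bases from the RefSeq start site, marked by the line, and each grey bar is 1 window, with the upstream start site used for Wwtr1 and the only window with a match used for Lats2. Every window shown holds at least 1 match, Ankrd1 and Ajuba hold 2, and the colours (lower, higher or not past the threshold in 3D) do not sort the matches by place.

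The study compared expression between 2D- and 3D-cultured cells, and for these genes the question was whether the co-activators and their targets differed between the cultures. The co-activators did not fall in 3D, while most of the target members did. Yap1 was 1.46-fold higher in 3D, Wwtr1 was close to level, Tead1 was 1.69-fold lower, and 6 of the 7 target members were between 1.46-fold (Axl) and 4.03-fold (Cyr61) lower. At an adjusted p-value (written adjusted p from here on) under 0.05 (limma on log2(TPM + 1), Benjamini-Hochberg over the 14116 genes tested), 7 of the 10 members were lower in 3D, 1 was higher and 2 did not pass. Over all genes tested 27.1% were lower and 23.4% higher, 50.5% in all. The median log2 change of the members was -0.76, against -0.04 for all genes tested, of which 15.6% lay below -0.5. In bulk RNA, fewer cells of a type and less RNA per cell cannot be told apart.

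**Figure D2:**
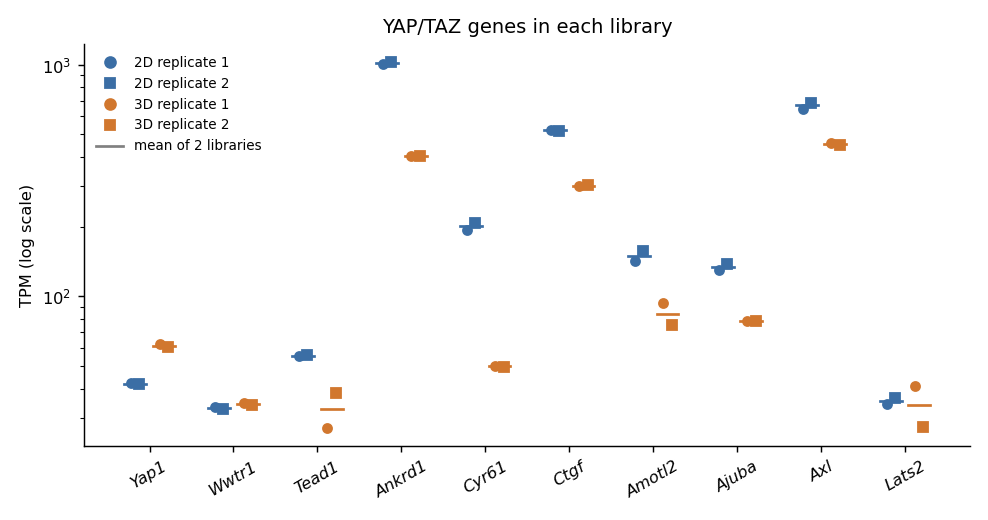
TPM of the 10 members in each of the 4 libraries on a log axis, circles for replicate 1 and squares for replicate 2, with lines at the mean of each culture. Yap1 is the member with both 3D libraries clearly above both 2D libraries (60.4 and 62.3 against 41.7 and 42.3 TPM), and the 3D libraries of Tead1 and Lats2 lie far apart.

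Yap1 (ENSMUSG00000053110, chromosome 9, 7931999 to 8004596 in GRCm38, minus strand, protein-coding), the main co-activator, was at 42.3 and 41.7 TPM in 2D and at 62.3 and 60.4 TPM in 3D. Both 3D libraries were above both 2D libraries, and the replicates of each culture were close. Its log2 change was 0.54 (SE 0.05, adjusted p 0.00163). It stayed between 0.50 and 0.56, past the threshold, under all 13 alternative settings.

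Wwtr1 (ENSMUSG00000027803, chromosome 3, 57455649 to 57575910, minus strand) encodes TAZ, the paralogue of YAP1. It was at 33.4 and 32.8 TPM in 2D and at 34.8 and 34.1 TPM in 3D, so that the cultures did not overlap but lay close together. Of the members, 9 had libraries that did not overlap between the cultures, 7 of them lower and 2 higher in 3D. Over all tested genes this was so for 77.5%, of which 41.6% were lower and 35.9% higher in 3D as a share of all tested. The log2 change of Wwtr1 was 0.05, with a 95% interval from -0.09 to 0.19 (adjusted p 0.432), an interval that holds no change as large as that of Yap1. The ratio of Yap1 to Wwtr1 TPM, both being levels corrected for length, was 1.26 and 1.27 in 2D but 1.79 and 1.77 in 3D. Summed, both genes reached 75.1 ± 0.850 TPM in 2D against 95.8 ± 1.76 in 3D.

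Tead1 (ENSMUSG00000055320, chromosome 7, 112679318 to 112906807, plus strand) encodes a DNA-binding partner that YAP1 and TAZ need to reach their targets. It was at 55.2 and 55.6 TPM in 2D and at 27.1 and 38.5 TPM in 3D. Both 3D libraries were below both 2D libraries, but the 3D libraries differed from each other by more than those of 95.4% of the genes tested did on the log2 scale. The log2 change was -0.76 (SE 0.17, adjusted p 0.0200), and it lost its call when either 2D library was left out (adjusted p 0.130 without 2D replicate 1 and 0.131 without 2D replicate 2). Testing all genes whatever their level left it just short of a call (adjusted p 0.0500061).

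The other TEAD genes were also read from a list of 7 TEAD and vestigial-like (VGLL) factors, 6 of them in the table. Of the 5 tested, 3 were lower and 0 higher in 3D, against 27.1% and 23.4% of all genes tested. Tead4 fell from 21.9 ± 0.288 to 16.7 ± 0.184 TPM, with a log2 change of -0.37 (adjusted p 0.00846, and 0.0517 without 3D replicate 2). Tead3 stood at 16.3 ± 2.67 and 13.4 ± 2.26 TPM and Tead2 at 1.41 ± 0.373 and 1.12 ± 0.332 TPM, and neither passed the test (adjusted p 0.238 and 0.460). Summed over Tead1 to Tead4 the level was 92.95 and 97.1 TPM in 2D but 59.8 and 68.2 TPM in 3D. Tead1 was the most abundant of the 4 in every library, with 45.3% to 59.3% of that sum.

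Vestigial-like proteins bind TEAD factors in place of YAP1 and TAZ, and VGLL4 is known as a repressor of TEAD-driven transcription. Vgll4 fell from 105.7 ± 8.23 to 72.9 ± 2.87 TPM and Vgll3 from 11.4 ± 0.738 to 3.30 ± 0.143 TPM (SD, n = 2 each). Their log2 changes were -0.53 and -1.52 (adjusted p 0.00455 and 0.000666), and that of Vgll3 was -0.98 with a pseudocount of 5. Vgll2 did not exceed 0.0382 TPM in any library and was not tested.

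**Figure D3:**
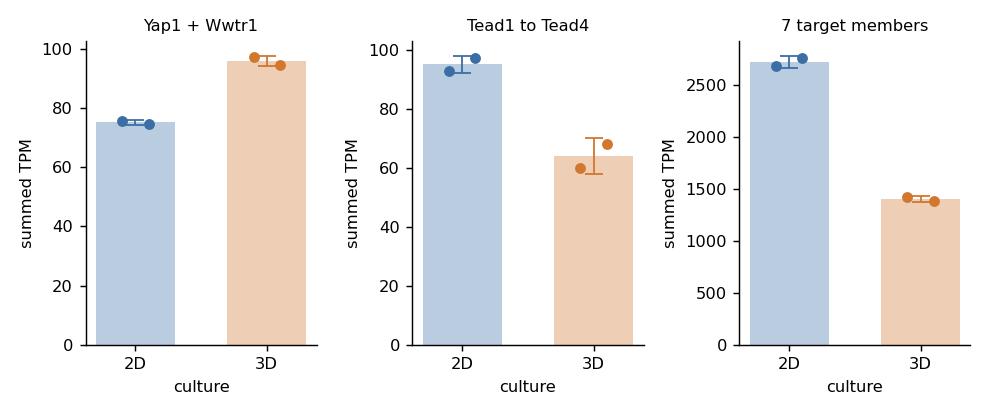
Summed TPM of Yap1 and Wwtr1 (left), Tead1 to Tead4 (middle) and the 7 target members Ankrd1, Cyr61, Ctgf, Amotl2, Ajuba, Axl and Lats2 (right); bars are means of 2 libraries, error bars are SD and points are libraries. The co-activator sum is higher in 3D (95.8 against 75.1 TPM), while the TEAD sum (64.0 against 95.03 TPM) and the target sum (1405 against 2723 TPM) are lower.

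The secreted matricellular proteins CYR61 and CTGF and the nuclear ankyrin-repeat protein ANKRD1 are the targets most often used as a readout of YAP/TAZ activity. For each of them both 3D libraries lay below both 2D libraries, as was so for 41.6% of all tested genes. The summed level of the 3 genes was 1729 and 1748 TPM in 2D but 752 and 754 TPM in 3D.

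Cyr61 (ENSMUSG00000028195, chromosome 3, 145646976 to 145649981, minus strand) was at 193.7 and 208 TPM in 2D and at 50.3 and 49.5 TPM in 3D. It was 4.03-fold lower in 3D, the largest change among the members, and in place 80 from the lowest among the 14116 genes tested. The change was -1.99 (SE 0.05, adjusted p 0.000202), and it ranged from -2.04 to -1.91 over the alternatives.

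Ankrd1 (ENSMUSG00000024803, chromosome 19, 36111965 to 36119844, minus strand) was at 1011 and 1023 TPM in 2D and at 403 and 402 TPM in 3D. In 2D it had the highest level of the members and stood in place 102 among all tested genes by mean TPM, and in 3D in place 331. Its log2 change was -1.34 (SE 0.03, adjusted p 0.000192), a 2.53-fold lower level. Because Cyr61 fell further, the ratio of Ankrd1 to Cyr61 TPM rose from 5.22 and 4.92 in 2D to 8.01 and 8.13 in 3D.

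Ctgf (ENSMUSG00000019997, chromosome 10, 24595442 to 24598683, plus strand) was at 524 and 517 TPM in 2D and at 299 and 302 TPM in 3D. Its log2 change was -0.79 (SE 0.03, adjusted p 0.000331), with a 95% interval from -0.88 to -0.70. That interval lies wholly above the intervals of Ankrd1 (-1.42 to -1.25) and Cyr61 (-2.13 to -1.85), so that the 3 readout genes fell by unequal amounts.

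Axl (ENSMUSG00000002602, chromosome 7, 25757273 to 25788705, minus strand), a receptor tyrosine kinase of the TAM family, was at 646 and 686 TPM in 2D and at 459 and 451 TPM in 3D. It had the smallest fall of the members that passed, with a log2 change of -0.55 (SE 0.04, adjusted p 0.00109). In 3D it was the member with the highest level, since Ankrd1 fell further. The ratio of Ankrd1 to Axl TPM was 1.56 and 1.49 in 2D and 0.877 and 0.891 in 3D.

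Of the targets that also act on the pathway, Amotl2 (ENSMUSG00000032531, chromosome 9, 102716672 to 102733418, plus strand) encodes an angiomotin-like protein that binds YAP1 and holds it at junctions. It was at 142.6 and 156.6 TPM in 2D and at 93.6 and 74.9 TPM in 3D. The cultures did not overlap, and the log2 change was -0.83 (SE 0.12, adjusted p 0.00559). Without 2D replicate 2 the adjusted p was 0.0513.

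Ajuba (ENSMUSG00000022178, chromosome 14, 54567472 to 54577558, minus strand) encodes a LIM-domain protein that binds and inhibits the LATS kinases. It was at 129.4 and 138.4 TPM in 2D and at 78.7 and 78.4 TPM in 3D, a log2 change of -0.76 (SE 0.05, adjusted p 0.000755). Its relative Limd1, which has a like role, rose from 35.6 ± 2.02 to 71.6 ± 1.46 TPM (log2 change 0.99, adjusted p 0.000653). The ratio of Limd1 to Ajuba TPM was thus 0.264 and 0.268 in 2D but 0.897 and 0.927 in 3D. The remaining relative, Wtip, stood at 23.8 ± 0.0705 and 21.6 ± 0.651 TPM (adjusted p 0.134).

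Lats2 (ENSMUSG00000021959, chromosome 14, 57689662 to 57758388, minus strand) encodes a kinase that phosphorylates YAP1 and TAZ and is itself induced by them. It was at 34.3 and 36.3 TPM in 2D and at 41.0 and 27.2 TPM in 3D. The 3D libraries lay on either side of the 2D libraries, and their difference was larger than that of 96.7% of the genes tested. The log2 change was -0.08 with a 95% interval from -0.60 to 0.44 (adjusted p 0.771). That interval holds the fall of Axl but not the larger falls of the other 5 targets. Without 3D replicate 1 it was -0.36 (adjusted p 0.0459) and without 3D replicate 2 it was 0.21 (adjusted p 0.130), so that 1 library decided its sign. On the same strand Lats2 overlaps Gm49361, which was not found by that name in the gene table. Whether RNA of Gm49361 counted towards Lats2 was not tested. Gm44462 overlaps Tead1 on the same strand and did not exceed 0.347 TPM in any library.

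**Figure D4:**
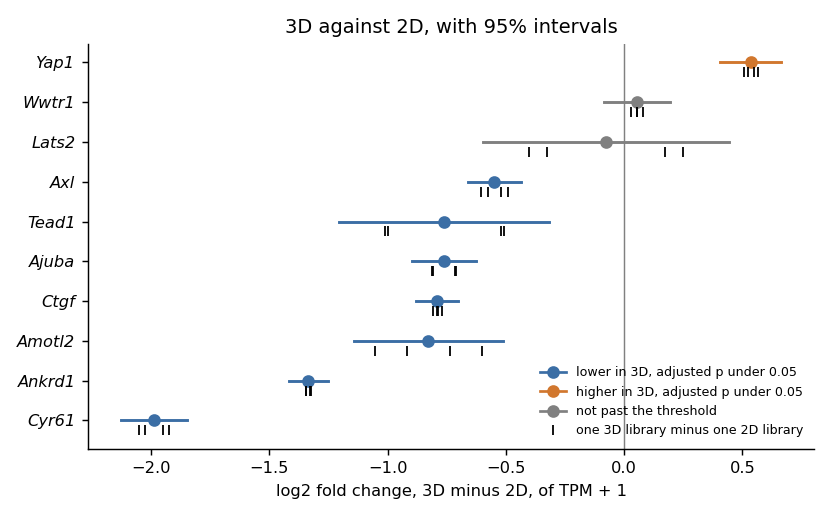
Log2 fold change of each member (3D minus 2D, on the log2(TPM + 1) scale) with its 95% interval from limma, and ticks below it for each of the 4 differences between one 3D and one 2D library. Cyr61 (-1.99) and Ankrd1 (-1.34) lie lowest, Yap1 (0.54) is the one member above 0 with an interval that leaves out 0, and the ticks of Lats2 fall on both sides of 0.

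The order of the levels changed between the cultures. In 2D it ran Ankrd1, Axl, Ctgf, Cyr61, Amotl2, Ajuba, Tead1, Yap1, Lats2 and Wwtr1, with no overlap between the libraries of neighbours. In 3D it ran Axl, Ankrd1, Ctgf, Amotl2, Ajuba, Yap1, Cyr61, Wwtr1, Lats2 and Tead1. There the libraries of Amotl2 and Ajuba overlapped, as did those of Wwtr1, Lats2 and Tead1. Cyr61 stood above Yap1 in both 2D libraries, with a ratio of 4.58 and 4.99, and below it in both 3D libraries, with a ratio of 0.808 and 0.818.

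Other published YAP/TAZ target genes were taken as a list of 16 that leaves out the members. Of the 15 tested, 6 were lower in 3D, 0 were higher and 9 did not pass. Over all genes tested 27.1% were lower and 23.4% higher. The median log2 change of the list was -0.27, against -0.04 for all genes. The median was -0.18 without 2D replicate 2 and -0.15 without 3D replicate 2, with 4 genes lower in each case. Crim1, a transmembrane protein that binds BMP ligands, fell from 64.1 ± 4.69 to 31.0 ± 0.680 TPM, a log2 change of -1.02 (adjusted p 0.000792). Ptpn14, a phosphatase that binds YAP1, fell by 0.62, the stress-response gene Gadd45a by 0.51 and tissue factor (F3) by 0.48 on the log2 scale (adjusted p 0.00244, 0.00150 and 0.00262). Ccdc80 and Dock5 were the other genes called, at -0.40 and -0.32 (adjusted p 0.0429 and 0.0407), and Ccdc80 lost its call when any one library was left out (adjusted p 0.0547 to 0.157). Dock5 lost its call without 2D replicate 2, 3D replicate 1 or 3D replicate 2 (adjusted p 0.126, 0.112 and 0.157). The most abundant gene of this list, Myof, a membrane repair protein, stood at 346 ± 14.2 TPM in 2D against 356 ± 20.3 in 3D (adjusted p 0.570, 95% interval of the log2 change -0.11 to 0.19). Asap1 stood at 107.0 ± 12.99 and 95.6 ± 7.17 TPM (adjusted p 0.261). The falls of Ankrd1 and Cyr61 were thus larger than that of any tested gene of this list, while Axl and Ctgf lay within its range. Of the list's 10 genes with a promoter window, Crim1 and Ptpn14 held the TEAD hexamer.

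Upstream, a list of 23 Hippo kinases and regulators had 21 tested genes, with a median log2 change of -0.12. Of these, 7 were lower, 2 higher and 12 not past the threshold, against 27.1% lower and 23.4% higher over all genes tested. The genes that fell do not share a single role. The scaffold genes Nf2 (133.4 ± 0.722 to 80.9 ± 2.38 TPM, log2 change -0.72, adjusted p 0.000653), Wwc1 and Wwc2 act above the kinases, and Stk3 and Stk4 encode the MST kinases that activate LATS1 and LATS2. Stk3 lost its call without 3D replicate 2 (adjusted p 0.0589). Wwc2 fell from 71.7 ± 3.36 to 34.6 ± 0.0764 TPM and Stk4 from 67.6 ± 2.01 to 47.0 ± 0.633 TPM (SD, n = 2 each), and their log2 changes were -1.03 and -0.52 (adjusted p 0.000514 and 0.00195). The remaining genes that fell were Amot, the angiomotin that binds YAP1, and the kinase gene Map4k4, whose call was lost without 2D replicate 2 (adjusted p 0.0645) or 3D replicate 2 (0.0694). Amot fell from 19.1 ± 1.78 to 8.23 ± 0.0663 TPM (log2 change -1.12, adjusted p 0.00121), whereas Amotl1 of the same family stood at 43.8 ± 2.77 and 40.4 ± 1.70 TPM (adjusted p 0.227).

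Beside Limd1, the gene that rose was Lats1, the partner kinase of LATS2, from 36.8 ± 0.579 to 43.7 ± 0.821 TPM (log2 change 0.24, adjusted p 0.0188). Its call was lost with the replicate block (adjusted p 0.0518) and without 2D replicate 1 (0.0601), 3D replicate 1 (0.102) or 3D replicate 2 (0.0738). By the mean over all 4 libraries the most abundant genes of this list were Sav1, the scaffold of the MST kinases, at 244 ± 5.78 and 227 ± 1.22 TPM (adjusted p 0.0797), and Csnk1d, a kinase that marks YAP1 for degradation, at 172.5 ± 7.40 and 172.2 ± 8.06 TPM (adjusted p 0.965), followed by Map4k4, which stood above Csnk1d in 2D, at 179.4 ± 10.3 TPM, but not in 3D, at 141.0 ± 10.3. Both atypical cadherin genes were low, with Dchs1 at no more than 0.359 TPM and Fat4 at no more than 0.0037 TPM in any library, and neither was tested.

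**Figure D5:**
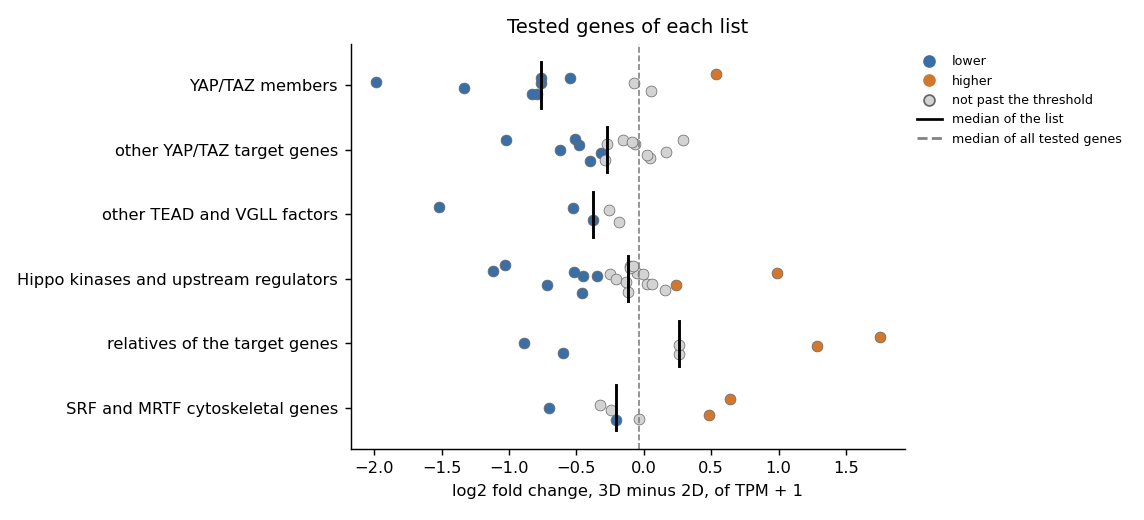
Log2 fold change (3D minus 2D, log2(TPM + 1) scale) of every tested gene in 6 lists, coloured by the call at an adjusted p-value under 0.05, with black bars at the list medians and a dashed line at the median of all tested genes. The members have the lowest median (-0.76), and the relatives of the target genes spread from -0.89 to 1.75.

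Relatives of the target genes moved in both directions. Of 9 such genes 8 were in the table and 6 were tested. Of those, 2 were higher and 2 lower, against 23.4% and 27.1% of all genes tested. Among CCN family genes, to which Cyr61 and Ctgf belong, Wisp1 fell from 35.9 ± 3.57 to 23.3 ± 0.102 TPM and Wisp2 rose from 1.25 ± 0.0902 to 6.56 ± 0.175 TPM (SD, n = 2 each). Their log2 changes were -0.60 and 1.75 (adjusted p 0.00521 and 0.000625). Of the ligands that AXL and its relatives bind, Pros1 fell from 40.1 ± 1.08 to 21.2 ± 0.300 TPM and Gas6, the AXL ligand, rose from 0.601 ± 0.0856 to 2.89 ± 0.194 TPM. Their log2 changes were -0.89 and 1.28 (adjusted p 0.000713 and 0.00212). For these low genes the size depended on the pseudocount, and with a pseudocount of 5 the log2 change was 0.49 for Gas6 and 0.89 for Wisp2, against 2.10 and 2.31 with 0.1. The receptor gene Tyro3 stood at 4.99 ± 0.121 and 6.19 ± 0.0815 TPM (adjusted p 0.0620) and Mertk at no more than 0.219 TPM. Ankrd23, a muscle ankyrin-repeat relative of Ankrd1, stood at 7.19 ± 0.0638 and 8.92 ± 1.88 TPM (adjusted p 0.205), and Ankrd2 at no more than 0.812 TPM.

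Ankrd1, Cyr61 and Ctgf are also known targets of serum response factor and its MRTF co-activators, and a list of 10 genes of that system was read beside them. Of 7 tested, 2 were lower and 2 higher, against 27.1% and 23.4% of all genes tested, with a median log2 change of -0.21. Flna, an actin cross-linker, fell from 275 ± 13.3 to 169.1 ± 6.88 TPM (log2 change -0.70, adjusted p 0.00110). Srf (log2 change -0.21) and the MRTF genes Mkl1 (0.49) and Mkl2 (0.64) passed the threshold at adjusted p 0.0295, 0.0397 and 0.0447, and each lost its call when single libraries were left out (adjusted p up to 0.143 for Srf, 0.148 for Mkl1 and 0.169 for Mkl2) and with no filter on low values. Vcl, which encodes vinculin, stood at 82.5 ± 1.92 and 80.3 ± 0.0900 TPM and Tpm1 at 285 ± 30.6 and 240 ± 6.34 TPM (adjusted p 0.496 and 0.0636). Tpm1 passed as lower with the replicate block (adjusted p 0.0378), where Srf did not (0.0702), and without 2D replicate 1 (log2 change -0.35, adjusted p 0.0109). The smooth muscle genes Acta2 and Myl9 did not exceed 0.279 and 0.269 TPM.

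Some markers of cell type moved beside the targets. Over all genes tested 23.4% were higher and 27.1% lower in 3D, 50.5% in all, and the marker counts stand beside these shares. Of the 8 tested hepatocyte markers 5 were higher and 3 lower in 3D. Their summed level, most of which is Krt8 and Krt18, was 9420 to 9621 TPM in 2D and 5579 to 5661 TPM in 3D. Against that fall, the secreted hepatocyte product Ttr rose from 3.55 ± 0.621 to 84.5 ± 5.07 TPM. Trf, also secreted, rose from 18.8 ± 0.655 to 229 ± 3.09 TPM. Alb, Apoa1 and Hnf4a were the other hepatocyte markers called higher. Apoe, another secreted product, fell from 7.45 ± 0.831 to 5.15 ± 0.0909 TPM (adjusted p 0.0237). Of the 4 tested biliary markers 2 were higher and 2 lower, with summed levels of 2294 to 2401 and 2269 to 2357 TPM. Within that sum Spp1 rose from 152.3 ± 19.8 to 775 ± 15.1 TPM and Sox9 from 15.8 ± 0.853 to 24.8 ± 0.789, while Krt19 fell to 1200 ± 37.0 and Krt7 to 313 ± 9.21 TPM. The stellate marker Des fell from 34.9 ± 1.65 to 18.0 ± 1.07 TPM (adjusted p 0.00122), which makes up most of the summed level of that list (35.01 to 37.6 TPM in 2D and 18.7 to 19.7 in 3D), while Col3a1 and Pdgfra stayed at or below 0.0845 TPM. The leukocyte markers summed to 21.9 to 22.7 TPM in 2D and 24.3 to 27.6 in 3D, mostly Cd68, with 1 of 3 tested genes lower (Cd3e). The endothelial markers summed to 0.878 to 1.54 TPM in 2D and 1.64 to 2.13 in 3D. The mitochondrial share of TPM also differed, at 5.44% and 5.37% in the 2D libraries against 6.78% and 6.51% in 3D. The part of the markers and of this share in the falls of the targets was not tested.

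The genes whose pattern over the 4 libraries was most like that of Ankrd1 were taken by the distance between centred log2(TPM + 1) values, among 9444 genes with a mean of at least 10 TPM. They were Rab11fip5, an endosomal recycling adaptor (distance 0.0380), Fam71f1 (0.0507) and Ube2c, an enzyme of mitotic protein degradation (0.0551). Ube2c fell from 732 ± 1.43 to 286 ± 9.27 TPM and Rab11fip5 from 36.8 ± 0.909 to 13.6 ± 0.0873 TPM (SD, n = 2 each). With 4 libraries in 2 groups this likeness is mostly that of the size of the fall, and it is a description of these libraries.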

How the data were processed

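RNA libraries were made with a stranded mRNA-seq kit. Per the labels and methods, reads were cleaned by cutadapt 1.8.3 and Trimmomatic 0.36, mapped to mouse build GRCm38 by HISAT2 2.0.5 with strand taken into account, and summed per gene by StringTie 1.3.4 over the annotation of Ensembl release 93. The authors deposited 1 TPM column for each library, and these were used. The log2 fold change and p-value columns in the deposited table were made by the authors with DESeq2 from read counts and were not used. TPM are relative and keep no depth, so no counting interval was computed.

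Tests were run on log2(TPM + 1), a scale that understates changes of low genes, for genes whose mean over the 4 libraries reached 1 TPM. limma 3.58.1 in R 4.3.3 was fitted with trend and robust variance and with the culture alone as factor. Its two-sided p-values were adjusted by Benjamini-Hochberg over all genes tested. The code was tested on simulated data with 200 of 14116 genes changed, many fewer than passed in these data. The simulated noise depended on the level of a gene alone. Genes with unusually wide replicates, such as Tead1 and Lats2 in 3D, were thus not represented. In this setting the code recovered 100% of 4-fold and 87% of 2-fold changes, and 6.965% of its 201 calls were false. For 2 libraries against 2 the smallest p of an exact permutation test is 0.333, so none was run. Promoter windows are from RefSeq (GRCm38.p6), matched by Ensembl gene identifier, and otherwise by gene symbol or unique synonym. Figures were drawn with matplotlib 3.10.9 in Python 3.11.15.

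The members and lists were chosen with earlier results of these data known, so no list was tested. Named genes are all members, all TEAD and VGLL factors and target relatives, the up to 5 called genes with the largest change and the 3 most abundant genes of each other list, and the 3 genes most like Ankrd1. Markers, other untested genes and Wwc1, Stk3, Lats1, Wtip, Amotl1, Dock5 and Nt5e were named after their values were seen. The 13 alternatives changed the pseudocount to 0.1 or 5, dropped the filter or raised it to 5 TPM, centred on the median, normalized by quantiles, rescaled without mitochondrial genes and the 20 highest genes, held the prior variance constant, added a replicate block, or left out each library in turn.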

Additional observations from a re-analysis of the deposited data

How the results depend on the processing

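Of the members, Yap1, Ankrd1, Cyr61, Ctgf, Ajuba and Axl kept their direction and their side of the threshold under all 13 alternatives, and Wwtr1 stayed short of it with a positive fold change. Tead1, Amotl2 and Lats2 did not, as given above. For Lats2 the log2 fold change ranged from -0.36 to 0.21 when a library was left out, and was positive without 3D replicate 2. Depth cannot be read from TPM, so no limit of detection is given, and with 2 libraries per culture a single library can decide a call. Where a library is left out, the one that remains in its culture is assumed to vary like the others. The cause of these differences was not tested.

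When each library was left out in turn, 4720 to 5954 genes passed the threshold, 2129 to 2957 of them higher in 3D, with 4720 without 3D replicate 1 against 7122 in all 4 libraries. The median of the members ranged from -0.77 to -0.66 (the latter without 3D replicate 1), with 5 to 8 members lower. The Hippo list had 1 to 2 genes higher and a median of -0.15 to -0.11, and the SRF and MRTF list 0 to 2 higher, 1 to 2 lower and a median of -0.23 to -0.13. With no filter the SRF and MRTF list had 0 higher, 1 lower and a median of -0.12, and the relatives of the targets a median of 0.12. With the filter raised to a mean of 5 TPM the medians were -0.12 and -0.17, the latter a change of sign as the low genes Wisp2 and Gas6 drop out, with 0 relatives higher. With a pseudocount of 5 the SRF and MRTF median was -0.14. With a constant prior variance it had 0 genes higher and the other targets 1 (Nt5e). Rescaling moved the Hippo median to -0.0897.

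The same-numbered libraries did not deviate together (correlation -0.0549 over 14116 genes), and shared numbers were not taken as pairs. With the replicate block 6247 genes passed, the members kept 7 lower and 1 higher, and the Hippo list and the SRF and MRTF list each had 1 gene higher. The other named genes that changed sign had fold changes near 0, namely Csnk1d (0.0100 with median centring, 0.0328 with quantile normalization, 0.0231 after rescaling, -0.0507 to 0.0443 when a library was left out) and Myof (-0.0156 to 0.10 when a library was left out, negative without 3D replicate 1). Over the 52 named genes, 618 of 671 values kept both direction and side of the threshold.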
